A study of Physcomitrium patens with 6 samples.

Results

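Protonemata of the moss Physcomitrella patens at day 14 after protoplast isolation were compared with plantlets at day 3, gene by gene, in 2 libraries of sequence tags. The genes compared were the 7710 gene models (7623 loci) with over 100 tags in at least 1 of the 2 libraries, of 17925 gene models listed in either of them and 19265 listed anywhere in the series. A gene model that a library did not list was set to 0 tags there, and the lowest listed count was 2.

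Digital gene expression tag profiling was used, in which cDNA held on oligo(dT) beads is cut at CATG sites and a 21-nt tag beside such a site is sequenced and counted. Both groups were regenerating gametophytes of the subspecies patens with no further genotype or treatment given. They grew from protoplasts, cells freed of their walls by enzyme in a mannitol solution, which were made from young protonemata, kept in the dark for 24 hours and then cultured under a daily light period on a medium with ammonium tartrate and glucose. Each of the 6 libraries of the series, at days 3, 14, 24 and 30 and of captured chloronemal and caulonemal cells of 14-day protonemata, was made from 3 biological replicates pooled beforehand. Time since the removal of the wall, time since the dark period and age all differ between the 2 groups and cannot be told apart. The tissue field of the labels gives leafy shoot for both days, while their growth text gives protonema, and no list of marker genes by identifier was at hand to check either. The captured cells of day 14 are used further on as a second readout instead.

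A protoplast rebuilds its wall, divides and grows out by tip extension into a branched filament, the protonema. The filament first consists of chloronemal cells, which are rich in chloroplasts, and later also of caulonemal cells, which are longer and spread the colony. In such cells the thylakoid membranes of the chloroplast hold the photosystems that drive electron transport, and the stroma around them holds the enzymes that fix carbon dioxide. Late embryogenesis abundant (LEA) and early light-induced proteins (ELIPs) are made by many plants under water loss, high light or other stress.

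The tags that stand for the transcripts on which the comparison turns are shown first, as the deposited lists give them, 5′ to 3′ with the CATG of the cut site in capitals. For the light reactions and carbon fixation they mark genes with large counts at day 14. For histone H3 they show how little separates the counted transcripts, and for the LEA protein and the ELIP they mark transcripts that were listed at day 3 and not at day 14.
RuBisCO small subunit Pp1s25_114V6.1: CATGttcgggtgcaccgactc
PsaO Pp1s248_60V6.1: CATGtccattcgttgtttata
PsaO Pp1s248_61V6.2: CATGgcacgtgggattgttca
Plastocyanin Pp1s254_25V6.1: CATGccattgcttggaataaa
Plastocyanin Pp1s27_130V6.1: CATGctaattttgaaaacact
Plastocyanin Pp1s3_520V6.1: CATGaggattacttgaacgca
Histone H3 Pp1s96_114V6.1: CATGccgaaagatattcagct
Histones H3 and H4 Pp1s35_164V6.1: CATGccgaaggatattcagct
Histone H3.2 Pp1s3_367V6.2: CATGccgaaggacattcagct
Histone H3.2 Pp1s3_594V6.1: CATGccaaaggacatccagct
LEA Pp1s156_7V6.2: CATGacatatataagatggaa
ELIP12 Pp1s196_69V6.1: CATGaccaaatactgtactca
SYP12A SNARE Pp1s300_43V6.1: CATGgagattcacaacatctt
SYP12A SNARE Pp1s16_111V6.1: CATGcatagccatcattctcc

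In total 1550 gene models were higher at day 14, which is 20.1% of those tested, and 1562 were lower, which is 20.3%. A gene was called higher or lower where its ratio after scaling by trimmed mean of M-values (TMM) was over 2-fold with p under 0.01 and adjusted p under 0.001 in an exact two-sided binomial test of its tags, adjusted by Benjamini-Hochberg across all 7710. With 1 pooled library a side what is tested is a pair of libraries and not the conditions, there is no replicate check, and the intervals given with ratios cover counting error only. All genes past 2-fold passed both p limits, and the largest adjusted p of a called gene was 5.69e-05, so that the fold limit alone decided the calls. The libraries held 6188001 gene tags at day 3 and 7027742 at day 14, with TMM factors of 0.923 and 0.832, and the tested genes took 96.1% and 96.6% of them. The median log2 ratio of day 14 to day 3 over all tested genes was 0.07, with quartiles at -0.77 and 0.82. In bulk tissue, fewer cells of a type and less RNA per cell cannot be told apart, here and in every result that follows.

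At large ratios falls outnumbered rises. Ratios over 10-fold were found for 159 genes that rose and 232 that fell, and ratios over 50-fold for 46 and 87. Genes not listed at all at day 3 numbered 22 among those tested, and 30 were not listed at day 14. At the filter, 41 genes just inside had a larger count of 101 tags and a smaller count between 0 and 100, and 37 genes just outside had a larger count of 100 and a smaller count between 24 and 98. If plants were assumed to vary with a coefficient of variation of 0.2, an edgeR exact test called 762 genes higher and 745 lower, and at an assumed 0.4 it called 101 and 173.

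**Figure D1:**
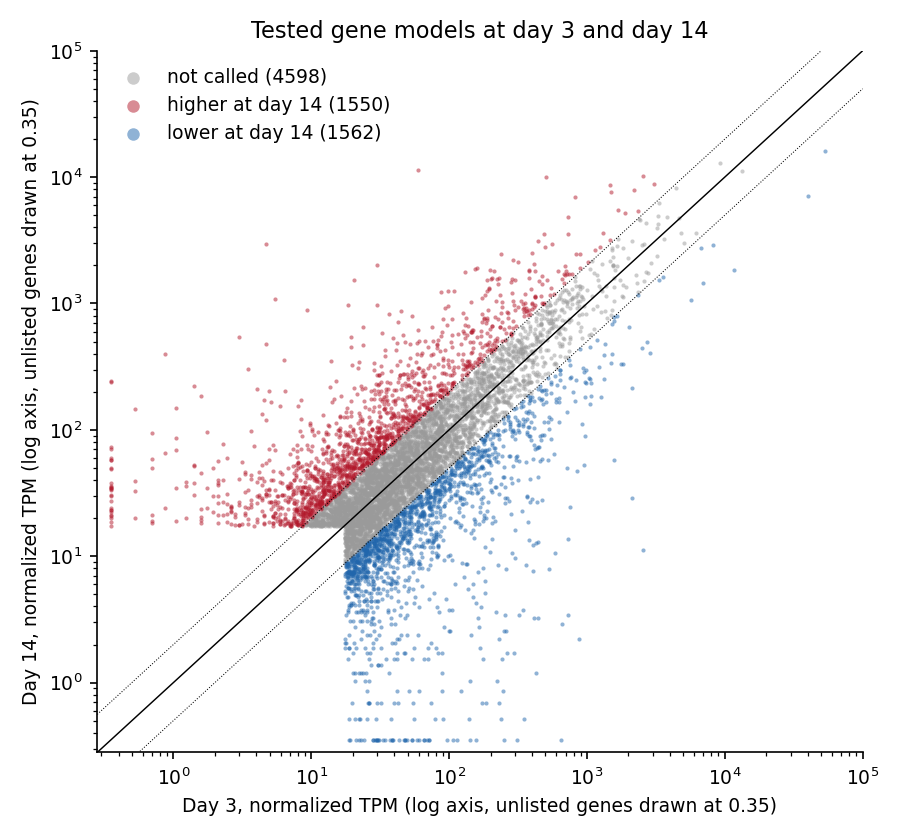
Each point is 1 of the 7710 tested gene models, with its TMM-normalized tags per 1000000 (TPM) at day 3 on the horizontal log axis and at day 14 on the vertical log axis. The solid line marks equal levels and the dotted lines 2-fold; the 1550 red points lie above the upper dotted line and the 1562 blue points below the lower, with genes unlisted in 1 library drawn at 0.35.

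Among the largest rises were transcripts of genes with little annotation. The gene model Pp1s405_20V6.1 had 27 tags at day 3 and 17181 at day 14 and rose 621-fold (95% interval 427 to 943). The gene model Pp1s15_70V6.1 had 342 tags at day 3 and 66390 at day 14, where it was among the 10 most tagged genes, and rose 189.6-fold (95% interval 170.5 to 211). Both counted the same CATG site on both days, and both were low again at day 30, with 23 and 112 tags. Pp1s35_32V6.1, annotated to the cell wall and to stress response, was not listed at day 3 and had 1435 tags at day 14, at least 467-fold higher. A peroxidase superfamily member of the wall and extracellular space (Pp1s112_99V6.1) was likewise unlisted at day 3 and had 210 tags at day 14, at least 68.4-fold higher. Class III peroxidases of plants act on wall polymers and hydrogen peroxide. Pp1s97_59V6.2, annotated to the extracellular region, rose from 53 to 5194 tags, 95.7-fold (95% interval 73.1 to 128), and Pp1s267_61V6.1, annotated to fluid transport in the membrane, from 2 to 335 tags, 164-fold (95% interval 44.9 to 1356). The carotenoid cleavage dioxygenase CCD8 (Pp1s14_419V6.1), which makes the precursor of strigolactones, had 131 tags at day 14 and none listed at day 3.

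The deepest falls included further proteins linked to desiccation and stress. A pair of gene models with a LEA domain fell together, Pp1s118_232V6.2 from 1356 to 3 tags, 463-fold (95% interval 158 to 2247) and Pp1s114_139V6.2 from 1315 to 4 tags, 337-fold (95% interval 131 to 1237). The listed tag of the latter came from another CATG site at day 14 than at day 3. A seed maturation protein homologue (Pp1s168_73V6.1) had 377 tags at day 3 and was not listed at day 14, at least 129-fold lower. Of 3 ELIPs tested, ELIP3 (Pp1s371_45V6.1) had 552 tags at day 3 and none listed at day 14, whereas ELIP14 (Pp1s77_163V6.2) had 142 tags at day 3 and 187 at day 14 and was not called, with a log2 ratio of 0.36. The call was thus not shared by all members of the family. Both tryptophan-rich sensory proteins (TSPO-like membrane proteins that bind porphyrins) fell, Pp1s281_123V6.1 from 1470 to 46 tags, 32.7-fold (95% interval 24.4 to 44.9) and Pp1s293_29V6.1 from 228 to 4 tags, 58.4-fold (95% interval 22.5 to 216). The largest count to vanish belonged to Pp1s25_107V6.1, a gene model without annotation, with 3716 tags at day 3 and none listed at day 14. VEP1, an NAD(P)-binding protein (Pp1s12_260V6.1), fell from 1761 to 2 tags, 902-fold (95% interval 249 to 7450.5), and the peptide transporter PTR1 (Pp1s114_7V6.2) from 514 to 3 tags, 175-fold (95% interval 59.7 to 854).

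Genes that fell over 10-fold were also low in the captured cells of day 14. The median of these 232 genes was 69.5 normalized TPM at day 3, 1.88 at day 14, 1.14 in chloronema and 2.60 in caulonema, and 6.60 and 15.3 at days 24 and 30. Of these genes 30 were unlisted at day 14, 101 in chloronema and 64 in caulonema, so the medians there rest on few tags. The captured libraries were of unlike depth, and the difference between their medians was not tested. Over all tested genes the medians lay between 29.7 and 40.0 in the 6 libraries. The 159 genes that rose over 10-fold had medians of 2.98 at day 3 and 73.2 at day 14, of 61.0 in chloronema and 49.5 in caulonema, and of 31.4 and 11 at days 24 and 30. The captured libraries entered the choice of these genes only through the common TMM scaling.

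Genes of the light reactions of photosynthesis rose together, and of the lists described here they had the highest median ratio. Of 94 tested genes annotated to a photosystem or to light harvesting, 80 were higher, 1 was lower and the median log2 ratio was 2.21, beside 0.07 over all tested genes. Their share of the gene tags went from 2.21% at day 3 to 8.53% at day 14. Of 213 further thylakoid genes 124 were higher and 13 lower, with a median of 1.26. At an assumed variation of 0.2 between plants 72 of these genes were called higher, in place of 80, and at 0.4 it was 5.

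All 7 gene models whose best database match names a photosystem subunit rose. PsaO, a photosystem I subunit at the docking side of the light-harvesting complexes, is counted by 2 gene models with consecutive numbers and unlike tags. The smaller of them (Pp1s248_61V6.2) had 536 tags at day 3 and 5395 at day 14 and rose 9.83-fold (95% interval 8.99 to 10.8). That was the largest ratio of the 7 gene models, whose median log2 ratio was 2.35. PsaH (Pp1s89_62V6.1), also a subunit of photosystem I, rose from 362 to 2384 tags, 6.43-fold (95% interval 5.76 to 7.20). The 22 kDa protein of photosystem II (Pp1s241_86V6.1), known as PsbS and needed for the harmless release of excess light energy, rose from 64 to 562 tags, 8.58-fold (95% interval 6.61 to 11.3). The PsbY gene models, for a small photosystem II polypeptide, rose less, by 3.43-fold, 4.12-fold and 4.79-fold.

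Plastocyanin, the copper protein that carries electrons to photosystem I, was counted by 3 gene models with unlike tags, and all rose. The model Pp1s254_25V6.1 had 1317 tags at day 3 and 9258 at day 14 and rose 6.87-fold (95% interval 6.48 to 7.28). Isoform 1 (Pp1s27_130V6.1) had 1200 tags at day 3 and 10545 at day 14 and rose 8.58-fold (95% interval 8.08 to 9.12). Isoform 2 (Pp1s3_520V6.1), the lowest at day 3 with 255 tags, had 5122 at day 14 and rose 19.6-fold (95% interval 17.3 to 22.3). Ferredoxin, which takes the electrons on, rose from 2510 to 18400 tags in the FED A homologue (Pp1s146_120V6.1) or 7.16-fold (95% interval 6.87 to 7.47), and the oxygen-evolving subunit PSBP-1 in both of its homologues, from 588 to 2894 tags (Pp1s11_39V6.2) and from 381 to 2934 tags (Pp1s135_79V6.1). Of the 3 most tagged genes of the list that rose, 2 bore no name beyond their annotation, Pp1s254_3V6.1 with 14625 tags at day 3 and 59370 at day 14 and Pp1s186_25V6.2 with 4655 tags at day 3 and 40766 at day 14, the latter on tags of different sites. PGR5 (Pp1s114_172V6.1), which takes part in cyclic electron flow around photosystem I, went the other way, from 781 to 272 tags, 2.94-fold (95% interval 2.56 to 3.39) lower.

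A gene set that shares the annotation of the RuBisCO small subunit rose as well. The best match of Pp1s25_114V6.1 is the small subunit of RuBisCO, the enzyme that captures carbon dioxide, and it had 2861 tags at day 3 and 58166 at day 14 and rose 19.9-fold (95% interval 19.1 to 20.6). Its process annotation is shared by 14 other tested gene models, and of the 15 together 13 were higher, 0 were lower, the median log2 ratio was 3.13 and the share of gene tags went from 0.147% to 1.42%. That shared annotation does not show that all of them encode the subunit. The smallest day 3 counts among them gave the largest ratios, Pp1s459_1V6.1 with 8 tags at day 3 and 1307 at day 14, 159.6-fold (95% interval 80.7 to 370.4) and Pp1s56_173V6.1 with 6 tags at day 3 and 864 at day 14, 141-fold (95% interval 64.3 to 384). Pp1s374_42V6.1 rose from 170 to 11693 tags, 67.2-fold (95% interval 57.7 to 78.6), and its tag differs from that of Pp1s459_2V6.2, which rose from 28 to 1176 tags, by 1 base. Pp1s352_14V6.1 stayed uncalled at 610 tags at day 3 and 1056 at day 14 and a log2 ratio of 0.76.

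Across the list of carbon fixation and photorespiration, 21 of 32 genes were higher and 4 lower. That list does not hold Pp1s25_114V6.1, whose 58166 tags at day 14 exceed the 44397 of the whole list. An aldolase-type TIM barrel protein of the list (Pp1s109_241V6.11) rose from 1082 to 2785 tags, 2.51-fold (95% interval 2.34 to 2.70). Among those that fell was a transketolase (Pp1s120_127V6.1), an enzyme of both the Calvin cycle and the pentose phosphate path, from 2731 to 929 tags, 3.01-fold (95% interval 2.79 to 3.25). Another was Pp1s223_26V6.1, annotated to carbon fixation and to glucose catabolism, from 3126 to 499 tags, 6.41-fold (95% interval 5.83 to 7.06). Genes of the plastid stroma in general rose in 213 of 396 cases and fell in 33.

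Among genes of pigment synthesis and of the plastid envelope rises also outnumbered falls. Of 55 chlorophyll and porphyrin synthesis genes 21 were higher and 1 lower (median log2 ratio 0.85), and of 38 of carotenoid and isoprenoid synthesis 19 and 1 (1.02). 1-Deoxyxylulose 5-phosphate synthase (Pp1s22_310V6.1), the first enzyme of the plastid isoprenoid path, rose from 317 to 688 tags, 2.12-fold (95% interval 1.85 to 2.43), on a tag from another site. Of 309 envelope genes 152 rose and 27 fell.

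Among proteins that build and divide the plastid few were called. Of 11 genes for plastid division, import and sigma factors 1 was higher, 2 were lower and the median log2 ratio was 0.56. The import receptor Toc34-3 (Pp1s54_12V6.2) rose from 60 to 174 tags, 2.83-fold (95% interval 2.10 to 3.86). FtsZ2-1 (Pp1s80_60V6.2), which forms the ring that divides the plastid, had 829 tags at day 3 and 1403 at day 14, a log2 ratio of 0.72, and FtsZ1-1 (Pp1s275_2V6.1) had 153 tags at day 3 and 250 at day 14, a ratio of 0.67. The sigma factor SIG5 (Pp1s92_33V6.1), which directs plastid RNA polymerase and is induced by light stress in Arabidopsis, fell from 170 to 30 tags, 5.80-fold (95% interval 3.92 to 8.86). Chloroplast Hsp70-2 (Pp1s115_168V6.2), a chaperone, fell from 1029 to 124 tags, 8.50-fold (95% interval 7.05 to 10.3). The families named here and below by best match were put together after their values had been seen and are described without a test.

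Genes of ribosome biogenesis and of tRNA charging rose or were not called. Ribosome biogenesis had 35 higher and 0 lower of 91 genes (median log2 ratio 0.85), and the synthesis of aminoacyl-tRNA 12 and 0 of 41 (0.45). Translation factors did not share this, with 12 higher and 13 lower of 99 and a median of 0.13 that was -0.02 with libraries scaled by total gene tags. Of 16 genes of RNA splicing 9 were higher and 0 lower (median 1.24). A biogenesis gene annotated to the plastid envelope, Pp1s97_12V6.1, rose from 430 to 3786 tags, 8.60-fold (95% interval 7.78 to 9.52). Chaperonin CPN60B, which folds plastid proteins, was counted by 2 gene models, of which Pp1s14_298V6.1 rose from 314 to 1050 tags, 3.27-fold (95% interval 2.88 to 3.72) and Pp1s15_485V6.2 had 1285 tags at day 3 and 1755 at day 14 without a call (log2 ratio 0.42). Of 11 genes of glutamine metabolism, through which plants assimilate ammonium, 5 were higher and 3 lower. Those that rose included a pair annotated to the plastid, Pp1s241_33V6.2 from 235 to 2494 tags, 10.4-fold (95% interval 9.06 to 11.9) and Pp1s40_17V6.1 from 171 to 1599 tags, 9.13-fold (95% interval 7.80 to 10.8). A cytoplasmic one (Pp1s19_279V6.1) rose from 380 to 1627 tags, 4.18-fold (95% interval 3.74 to 4.69). The respiratory chain list had 19 higher and 2 lower of 72, or 26.4% and 2.8%, beside 20.1% and 20.3% of all tested genes. It was not limited to mitochondrial genes, as its largest rise was that of a gene also annotated to photosystem I, Pp1s206_11V6.1, from 1079 to 8918 tags. Of 46 genes annotated to the mitochondrial respiratory chain 13 were higher and 1 was lower.

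**Figure D2:**
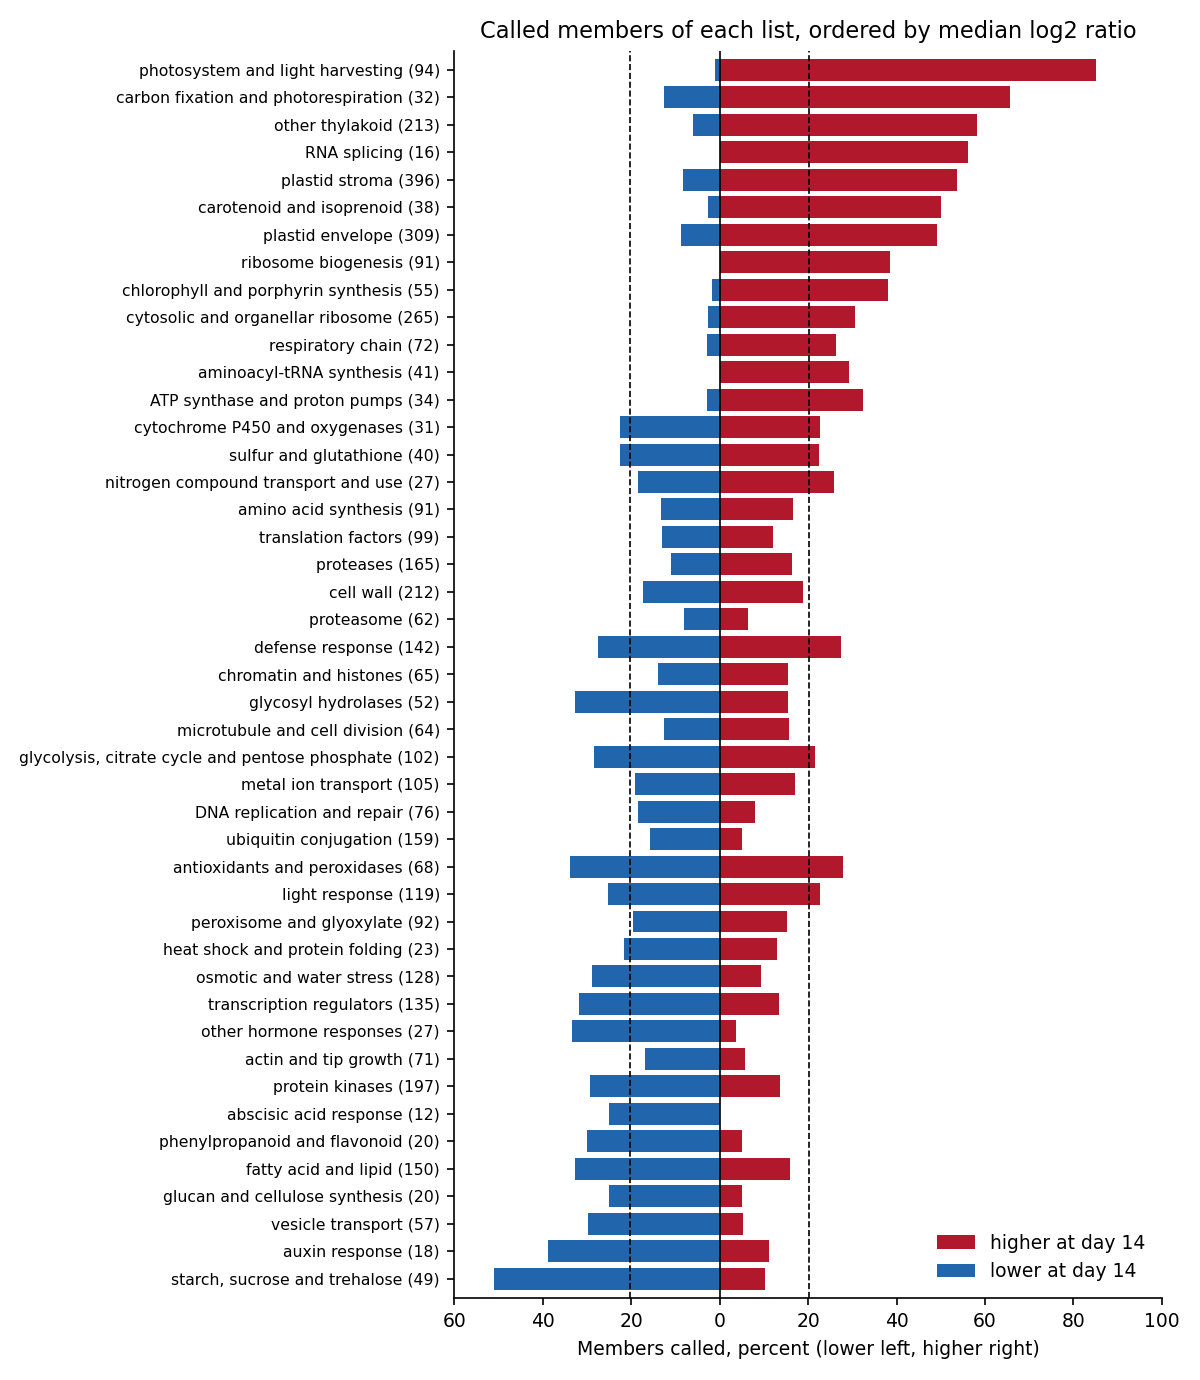
Each bar pair gives, for 1 list with the number of its tested genes in brackets, the percent of members called higher (red, to the right) and lower (blue, to the left) at day 14, ordered by median log2 ratio, with the dashed lines at the shares of all tested genes (20.1% and 20.3%). Photosystem and light harvesting stands at the top with 80 of 94 higher, and starch, sucrose and trehalose at the bottom with 25 of 49 lower.

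Among genes of reserve carbohydrates falls outnumbered rises. Of 49 genes for starch, sucrose and trehalose 25 were lower and 5 higher, with a median log2 ratio of -1.14. All 4 gene models named for trehalose enzymes fell, trehalose being a sugar whose phosphate ester signals sugar status in plants. Trehalose-6-phosphate synthase (Pp1s153_142V6.1) fell from 1812 to 579 tags, 3.2-fold (95% interval 2.92 to 3.52), trehalase (Pp1s116_30V6.1) from 339 to 99 tags, 3.51-fold (95% interval 2.80 to 4.43) and trehalose-phosphatase 1 (Pp1s141_116V6.1) from 845 to 382 tags, 2.27-fold (95% interval 2.00 to 2.56). The trehalase tags listed at day 3 and day 14 came from the same site but differed by 1 base. A further gene annotated to trehalose metabolism (Pp1s32_182V6.1) rose from 81 to 406 tags, 4.90-fold (95% interval 3.85 to 6.29), so that the process did not move as a whole. Among hexokinases, which phosphorylate glucose, HXK2 (Pp1s414_10V6.1) fell from 105 to 9 tags, 11.9-fold (95% interval 6.06 to 26.8) and HXK4 (Pp1s45_156V6.1) from 160 to 32 tags, 5.12-fold (95% interval 3.49 to 7.74). HXK1 (Pp1s150_124V6.1) had 447 tags at day 3 and 414 at day 14 and was not called (log2 ratio -0.14).

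Genes of lipid metabolism leaned downward, and the calls in phenolic metabolism were mostly falls. Of 150 genes of fatty acids and lipids 49 were lower and 24 higher, or 32.7% and 16% (median log2 ratio -0.41). Over all tested genes 20.3% were lower and 20.1% higher. Lipoxygenases oxidise polyunsaturated fatty acids to precursors of oxylipins, and LOX7 (Pp1s70_182V6.1) fell from 468 to 144 tags, 3.33-fold (95% interval 2.76 to 4.04) and LOX3 (Pp1s434_27V6.3) from 6018 to 2631 tags, 2.34-fold (95% interval 2.24 to 2.45). LOX2 (Pp1s419_10V6.1) had 1168 tags at day 3 and 2225 at day 14, a log2 ratio of 0.90 in the other direction, without a call. Of 20 phenylpropanoid and flavonoid genes 6 (30%) were lower, 1 (5%) was higher and 13 were not called (median log2 ratio -0.41). Their summed tags went from 9749 at day 3 to 10227 at day 14. Of 10 genes annotated to phenylpropanoid biosynthesis 1 was lower and 0 were higher (median 0.02). Both 4-coumarate:CoA ligases, at the entry to phenylpropanoids, fell, Pp1s71_170V6.1 from 1117 to 327 tags, 3.50-fold (95% interval 3.09 to 3.97) and Pp1s20_346V6.1 from 354 to 124 tags, 2.92-fold (95% interval 2.38 to 3.62). The opposite was seen for Pp1s494_4V6.1, annotated to phenylpropanoid metabolism, from 9 to 137 tags, 14.9-fold (95% interval 7.61 to 33.2) higher. Glycolysis, the citrate cycle and the pentose phosphate path were split, with 22 higher and 29 lower of 102. In the peroxisome, Pp1s506_15V6.1, annotated to aldehyde metabolism, fell from 2369 to 19 tags, 128-fold (95% interval 81.6 to 212), whereas Pp1s71_283V6.1 rose from 175 to 1314 tags, 7.33-fold (95% interval 6.26 to 8.64).

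Most members of some families of membrane transporters fell, and within other families single members changed in opposite directions. Of 7 ABCG transporters of the pleiotropic drug resistance (PDR) group 6 fell and 0 rose (median log2 ratio -2.09), of 5 ABCC proteins 4 fell (-1.74) and of 10 ABCB proteins 6 (-1.32). ABCG16 (Pp1s72_306V6.1), the most tagged of the PDR group, had 5541 tags at day 3 and 518 at day 14 and fell 11-fold. ABCG20 (Pp1s59_42V6.1) fell from 599 to 55 tags, 11.2-fold (95% interval 8.45 to 15.0). ABCC proteins of plants move conjugated compounds into the vacuole, and their falls were alike, 3.45-fold in ABCC2, 3.33-fold in ABCC5, 3.33-fold in ABCC4 and 2.73-fold in ABCC3. The ABCI proteins, small soluble or subunit-type members, had 4 higher and 1 lower of 8. ABCI11 (Pp1s38_72V6.1) rose from 138 to 455 tags, 3.22-fold (95% interval 2.66 to 3.92), between tags of different sites, and ABCI17 (Pp1s326_48V6.1) fell from 163 to 17 tags, 9.82-fold (95% interval 5.95 to 17.3).

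Mechanosensitive channels of the MscS type, which open under membrane tension, fell in 3 of 4 cases. MSCL3 (Pp1s206_53V6.1) had 306 tags at day 3 and none listed at day 14, at least 104-fold lower, and MSCL13 (Pp1s2_432V6.1) fell from 218 to 3 tags, 74.4-fold (95% interval 25.1 to 364). MSCL2 (Pp1s67_242V6.1), the most tagged, had 503 tags at day 3 and 279 at day 14 and no call (log2 ratio -0.88). Sodium pumps of the P-type ATPase family, which move sodium out of moss cells, changed in opposite directions. One (Pp1s268_6V6.1) fell from 693 to 5 tags, 142-fold (95% interval 60.5 to 438), and the tags came from different CATG sites on the 2 days. The other (Pp1s40_228V6.1) rose from 140 to 338 tags, 2.36-fold (95% interval 1.93 to 2.89). A putative Na/H antiporter (Pp1s12_8V6.1) fell from 182 to 11 tags, 16.9-fold (95% interval 9.25 to 34.5).

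Putative calcium channels also changed in opposite directions. The two-pore channel Pp1s258_30V6.1 fell from 734 to 40 tags, 18.8-fold (95% interval 13.7 to 26.5) and the two-pore channel Pp1s45_277V6.1 rose from 40 to 222 tags, 5.42-fold (95% interval 3.86 to 7.79). Their order was thus reversed between the days, each at the same CATG site on both. Potassium transporter HAK1 (Pp1s6_102V6.1) fell from 439 to 173 tags, 2.60-fold (95% interval 2.17 to 3.12), and DMI1 (Pp1s14_358V6.1), an ion channel of the nuclear envelope in legumes, rose from 362 to 1031 tags, 2.78-fold (95% interval 2.47 to 3.14). Of 8 genes for metal uptake and storage 4 fell, among them a ferric reductase-like protein (Pp1s54_173V6.1) from 1739 to 340 tags, 5.24-fold (95% interval 4.66 to 5.90), while ferritin (Pp1s59_356V6.1), which stores iron, rose from 510 to 1054 tags, 2.02-fold (95% interval 1.81 to 2.25).

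**Figure D3:**
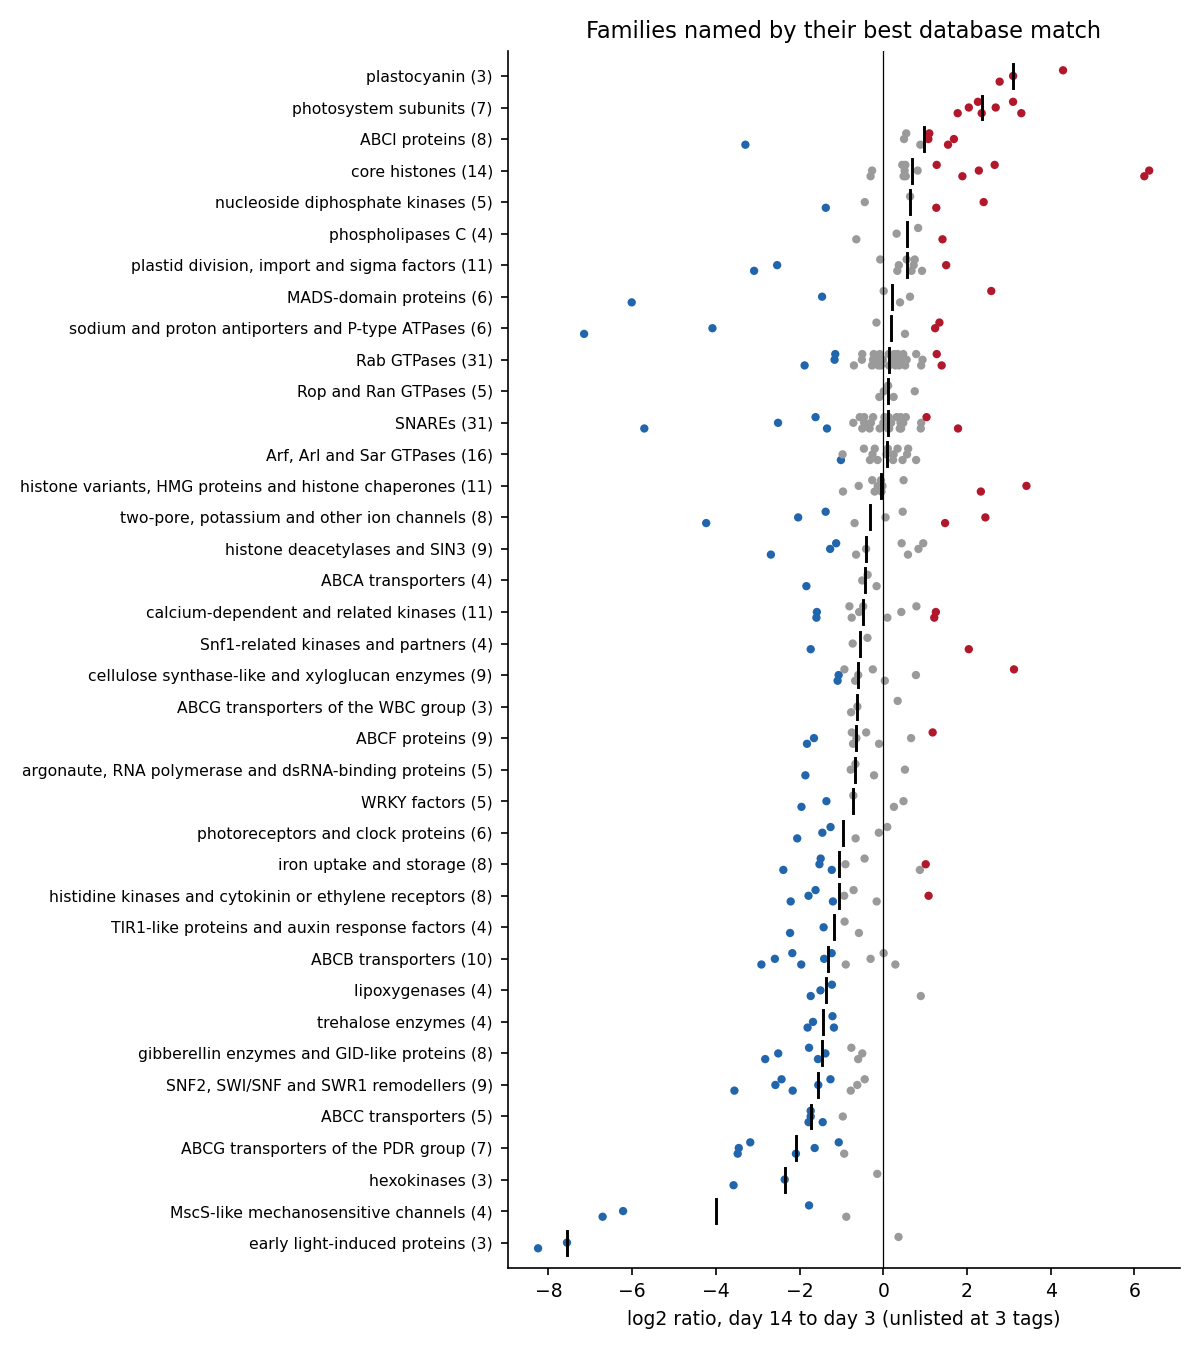
Each point is 1 tested gene model of a family named by its best database match, at its log2 ratio of day 14 to day 3, with red for higher, blue for lower and grey for not called, black bars at the family medians and the number of members in brackets. Plastocyanins and photosystem subunits lie wholly to the right of 0, PDR-group ABCG transporters wholly to the left, and Rab GTPases and SNAREs cluster around 0 with few members far out.

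The list of chromatin and histones as a whole had 10 higher and 9 lower of 65 genes. These are 15.4% and 13.8%, beside 20.1% and 20.3% of all tested genes. Families within chromatin were small and put together after their values had been seen, so that calls in 1 direction within a family are a description only. Of 14 core histone gene models 6 were higher and 0 lower (median log2 ratio 0.68), and of 9 SNF2, SWI/SNF and SWR1 remodellers, which slide or exchange nucleosomes, 0 and 6 (-1.55). Histone H3 (Pp1s96_114V6.1) had 5 tags at day 3 and 386 at day 14 and rose 75.4-fold (95% interval 32.0 to 234). The gene model matched to histones H3 and H4 (Pp1s35_164V6.1) had 6 tags at day 3 and 502 at day 14 and rose 81.7-fold (95% interval 37.3 to 224). Both histone H3.2 models lay between 322 and 527 tags on both days and were not called, Pp1s3_367V6.2 with 322 tags at day 3 and 475 at day 14 and Pp1s3_594V6.1 with 355 tags at day 3 and 527 at day 14, at log2 ratios of 0.53 and 0.54.

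The 4 tags shown above lie close together. Counted from 1 at the 5′ end, the tag of Pp1s35_164V6.1 differs from that of Pp1s96_114V6.1 by G10A and from that of Pp1s3_367V6.2 by T13C, and the other pairs differ at 2 to 4 positions. The authors' mapping allowed 1 mismatch and left out tags shared by several genes, so that reads with an error could have been placed on a neighbour or lost, and their part in these counts was not tested. Among H2B gene models Pp1s98_232V6.1 rose from 19 to 123 tags, 6.32-fold (95% interval 3.88 to 10.9) and Pp1s56_226V6.1 from 52 to 259 tags, 4.86-fold (95% interval 3.60 to 6.69), while the H4 model Pp1s83_240V6.1 had 252 tags at day 3 and 209 at day 14 and no call (log2 ratio -0.30). Of 11 histone variants, HMG proteins and histone chaperones 2 were higher and 0 lower (median log2 ratio -0.06). The 18.2% higher is near the 20.1% of all tested genes. Of these 2, a histone chaperone (Pp1s319_51V6.1) rose from 70 to 767 tags, 10.7-fold (95% interval 8.37 to 13.9) and the high mobility group protein HMGB1 (Pp1s223_15V6.1) from 289 to 1488 tags, 5.03-fold (95% interval 4.43 to 5.72). The remodeller with the deepest fall, of the SWR1 complex (Pp1s55_124V6.1), had 115 tags at day 3 and 10 at day 14 and fell 11.8-fold (95% interval 6.18 to 25.2). A SIN3 component of histone deacetylase complexes (Pp1s122_129V6.1) fell from 132 to 21 tags, 6.44-fold (95% interval 4.04 to 10.7).

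Genes of the cell cycle and the cytoskeleton were called less often than all tested genes, of which 20.1% were higher and 20.3% lower. Microtubule and cell division genes were higher in 10 and lower in 8 of 64 cases (15.6% and 12.5%). DNA replication and repair genes were so in 6 and 14 of 76 (7.9% and 18.4%). RAD51A (Pp1s31_236V6.1), which pairs DNA strands in recombination repair, fell from 966 to 294 tags, 3.36-fold (95% interval 2.95 to 3.85). Of 71 genes of actin and tip growth 4 were higher and 12 lower, or 5.6% and 16.9% (median log2 ratio -0.40). None of 5 Rop and Ran GTPases was called.

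Of 57 genes annotated to vesicle transport 17 were lower and 3 higher, whereas few SNAREs and Rab GTPases were called and single members among them changed steeply. Of 31 SNAREs, the proteins that fuse vesicles with their target membranes, 2 rose, 4 fell and 25 were not called. The plasma membrane SNAREs of the SYP12A group changed places. Pp1s300_43V6.1 had 2301 tags at day 3 and 45 at day 14 and fell 52.4-fold (95% interval 39.0 to 72.0), and Pp1s16_111V6.1 had 53 tags at day 3 and 187 at day 14 and rose 3.45-fold (95% interval 2.53 to 4.77), each at the same CATG site on both days. SYP12B (Pp1s3_24V6.1) fell from 201 to 36 tags, 5.72-fold (95% interval 3.99 to 8.39), and of the VAMP72 SNAREs of secretory vesicles Pp1s391_60V6.1 fell from 1569 to 632 tags, 2.54-fold (95% interval 2.32 to 2.79) and Pp1s226_119V6.1 rose from 220 to 461 tags, 2.05-fold (95% interval 1.74 to 2.41). Of 31 Rab GTPases, which steer vesicles, 2 rose and 3 fell. In the RabH group, of the Golgi, Pp1s288_43V6.1 fell from 303 to 140 tags, 2.22-fold (95% interval 1.81 to 2.73) and Pp1s39_147V6.2 rose from 55 to 148 tags, 2.63-fold (95% interval 1.92 to 3.65).

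The cell wall list as a whole lay near the background, with 40 higher and 37 lower of 212. Enzymes that cut and rejoin xyloglucan were among the rises. The xyloglucan endotransglycosylase/hydrolase Pp1s81_246V6.1 had 185 tags at day 3 and 1649 at day 14 and rose 8.71-fold (95% interval 7.47 to 10.2), and XTH5 (Pp1s122_57V6.1) rose from 25 to 787 tags, 30.7-fold (95% interval 20.7 to 47.8). Cellulose synthase-like proteins, which make glucan or mannan backbones, had no member among the rises, and CSLA3 (Pp1s36_214V6.1) fell from 481 to 231 tags, 2.13-fold (95% interval 1.82 to 2.51) and CSLD3 (Pp1s111_50V6.1) from 446 to 218 tags, 2.09-fold (95% interval 1.78 to 2.47). A glycosyl hydrolase annotated to glucan metabolism outside the cell (Pp1s309_36V6.1) fell from 2081 to 176 tags, 12.1-fold (95% interval 10.4 to 14.2).

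Among regulatory genes more members fell than rose. Of 135 transcription regulators 43 were lower and 18 higher (median log2 ratio -0.35), and of 197 protein kinases 58 and 27 (-0.41). BZO2H3 (Pp1s213_13V6.2), a bZIP factor named for an Arabidopsis homologue, fell from 8591 to 1988 tags, 4.42-fold (95% interval 4.21 to 4.65). The MYB factor homologues Pp1s66_90V6.1 and Pp1s2_312V6.1 fell from 989 to 155 tags and from 146 to 18 tags. CRF2 (Pp1s7_481V6.1), a cytokinin response factor homologue, had 166 tags at day 3 and none listed at day 14, at least 56.7-fold lower. MADS-domain proteins differed among themselves, as PPTIM7 (Pp1s37_353V6.1) had 189 tags at day 3 and none listed at day 14 and PPMA9 (Pp1s55_284V6.1) rose from 17 to 104 tags, 5.97-fold (95% interval 3.56 to 10.6). ATX1 (Pp1s67_56V6.1), a histone methyltransferase homologue, rose from 39 to 202 tags, 5.06-fold (95% interval 3.58 to 7.32), and CAM5 (Pp1s40_127V6.1), a calmodulin homologue, from 123 to 418 tags, 3.32-fold (95% interval 2.71 to 4.09).

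Falls outnumbered rises among hormone-related genes. The auxin list had 7 lower and 2 higher of 18 (median log2 ratio -0.81). These are 38.9% and 11.1%, beside 20.3% and 20.1% of all tested genes. The TIR1-like receptor TIRA2 (Pp1s16_2V6.1), through which auxin marks repressors for breakdown, fell from 183 to 40 tags, 4.68-fold (95% interval 3.31 to 6.77), and the ABCB transporter Pp1s391_45V6.1 from 956 to 130 tags, 7.53-fold (95% interval 6.26 to 9.12). Of 8 gene models named for gibberellin enzymes or receptors of seed plants 5 fell and 0 rose. The gibberellin 3-oxidase-like Pp1s277_78V6.2 had 14416 tags at day 3 and 2590 at day 14 and fell 5.70-fold (95% interval 5.47 to 5.95), and a gibberellin 20-oxidase (Pp1s35_187V6.1) fell from 145 to 21 tags, 7.07-fold (95% interval 4.46 to 11.8). Of 8 histidine kinases and receptors of cytokinin or ethylene 4 fell and 1 rose. A sensory histidine kinase (Pp1s113_161V6.2) was among those that fell, from 326 to 72 tags, 4.64-fold (95% interval 3.58 to 6.07). The ethylene receptor homologue ETR1 (Pp1s115_107V6.1) fell from 333 to 148 tags, 2.30-fold (95% interval 1.89 to 2.82), and ETR3 (Pp1s54_307V6.1) had 145 tags at day 3 and 133 at day 14 without a call (log2 ratio -0.16). A clock protein, the pseudo-response regulator Pp1s412_35V6.1, fell from 638 to 157 tags, 4.16-fold (95% interval 3.49 to 4.99), and the blue light receptor cryptochrome 1a (Pp1s2_368V6.1) from 453 to 169 tags, 2.74-fold (95% interval 2.30 to 3.29).

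Stress lists beyond the LEA proteins differed. Osmotic and water stress leaned downward, with 37 lower and 12 higher of 128, or 28.9% and 9.4%. Antioxidants and peroxidases had 23 lower and 19 higher of 68 (33.8% and 27.9%). Defense response had 39 and 39 of 142 (27.5% each). Over all tested genes 20.3% were lower and 20.1% higher. Within the antioxidant list genes with large counts changed in both directions. Pp1s44_277V6.1, annotated to reactive oxygen metabolism, fell from 38556 to 15977 tags, 2.47-fold (95% interval 2.43 to 2.52). Pp1s219_8V6.1 rose from 340 to 3617 tags, 10.4-fold (95% interval 9.29 to 11.6) and Pp1s232_69V6.1 from 264 to 3300 tags, 12.2-fold (95% interval 10.8 to 13.9). Outside that list a glutathione S-transferase (Pp1s126_26V6.1), of a family that conjugates toxic compounds, fell from 32733 to 6281 tags, 5.34-fold (95% interval 5.19 to 5.48). The proteasome, with 4 higher and 5 lower of 62, had few calls, and CDC48 (Pp1s296_11V6.2), which extracts ubiquitinated proteins, fell from 7717 to 2806 tags, 2.82-fold (95% interval 2.70 to 2.94).

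Gene Ontology (GO) terms, from which most of the lists are built, were also described singly. Of 331 terms with at least 10 tested genes, 27 had a median log2 ratio over 1 and 13 one under -1. Those over 1 were 13 Component, 5 Function and 9 Process terms, and those under -1 were 0, 4 and 9. Photosystem I was the highest Component term named in the files, with 21 of 23 genes higher, 0 lower and a median of 2.60, and photosystem II had 27 of 29 and 2.15. Tetrapyrrole binding, the binding of chlorophyll and heme, had 25 of 28 higher and a median of 2.00, and thiamine metabolism 6 of 11 higher and 1.08. At the other end stood response to chemical stimulus with 7 of 11 lower and -1.73, glycogen metabolism with 9 of 13 and -1.67, modified amino acid metabolism with 8 of 13 and -1.53 and L-phenylalanine metabolism with 7 of 13 and -1.05. Genes without any GO term, 1873 in number, were lower in 25.3% and higher in 18.5% of cases, against 18.6% and 20.6% of the 5837 with a term.

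The captured cells of 14-day protonemata gave a readout that shares no library with this comparison. Of the 7710 genes 4006 were also tested between the captured tissues, where 20.8% were higher in caulonema and 16.7% in chloronema. Of 1018 genes that had risen by day 14 and could be tested there, 23.1% were higher in chloronema and 15.7% in caulonema. Of 510 genes that had fallen, 51 were higher in chloronema and 171 in caulonema, or 33.5%. The median log2 ratio of caulonema to chloronema was -0.20 for the former, 0.53 for the latter and 0.09 for all. Only 32.7% of the genes that had fallen passed the filter in the captured tissues, against 65.7% of those that had risen. The captured libraries were also shallower, so that the 2 shares describe selected genes. They were of unequal depth, with 2557991 gene tags in caulonema and 1733082 in chloronema. Gene models over 100 tags numbered 4069 in caulonema and 2471 in chloronema. A gene with few tags could thus pass the filter more readily when higher in caulonema. Whether this selection has a part in the 33.5% of the genes that had fallen was not tested.

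The most tagged transcripts also shifted. The 10 largest genes took 14.9% of the gene tags at day 3 and 8.74% at day 14. Pp1s66_172V6.1, without annotation and the largest on both days, had 306706 tags at day 3 and 93621 at day 14 and fell 3.35-fold (95% interval 3.33 to 3.38). Pp1s181_57V6.3 had 229610 tags at day 3 and 41223 at day 14 and fell 5.70-fold (95% interval 5.64 to 5.76), and Pp1s52_261V6.1 fell from 66516 to 10773 tags, 6.32-fold (95% interval 6.19 to 6.45). A ribosomal gene (Pp1s38_196V6.1), second at day 14, had 52372 tags at day 3 and 75260 at day 14 without a call (log2 ratio 0.49). Among the 10 largest at day 14, Pp1s6_312V6.2, annotated to cellular metabolism, rose from 8337 to 50357 tags, 5.90-fold (95% interval 5.76 to 6.04) and Pp1s461_15V6.1, annotated to polysaccharide breakdown, from 12528 to 45934 tags, 3.58-fold (95% interval 3.51 to 3.65).

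**Figure D4:**
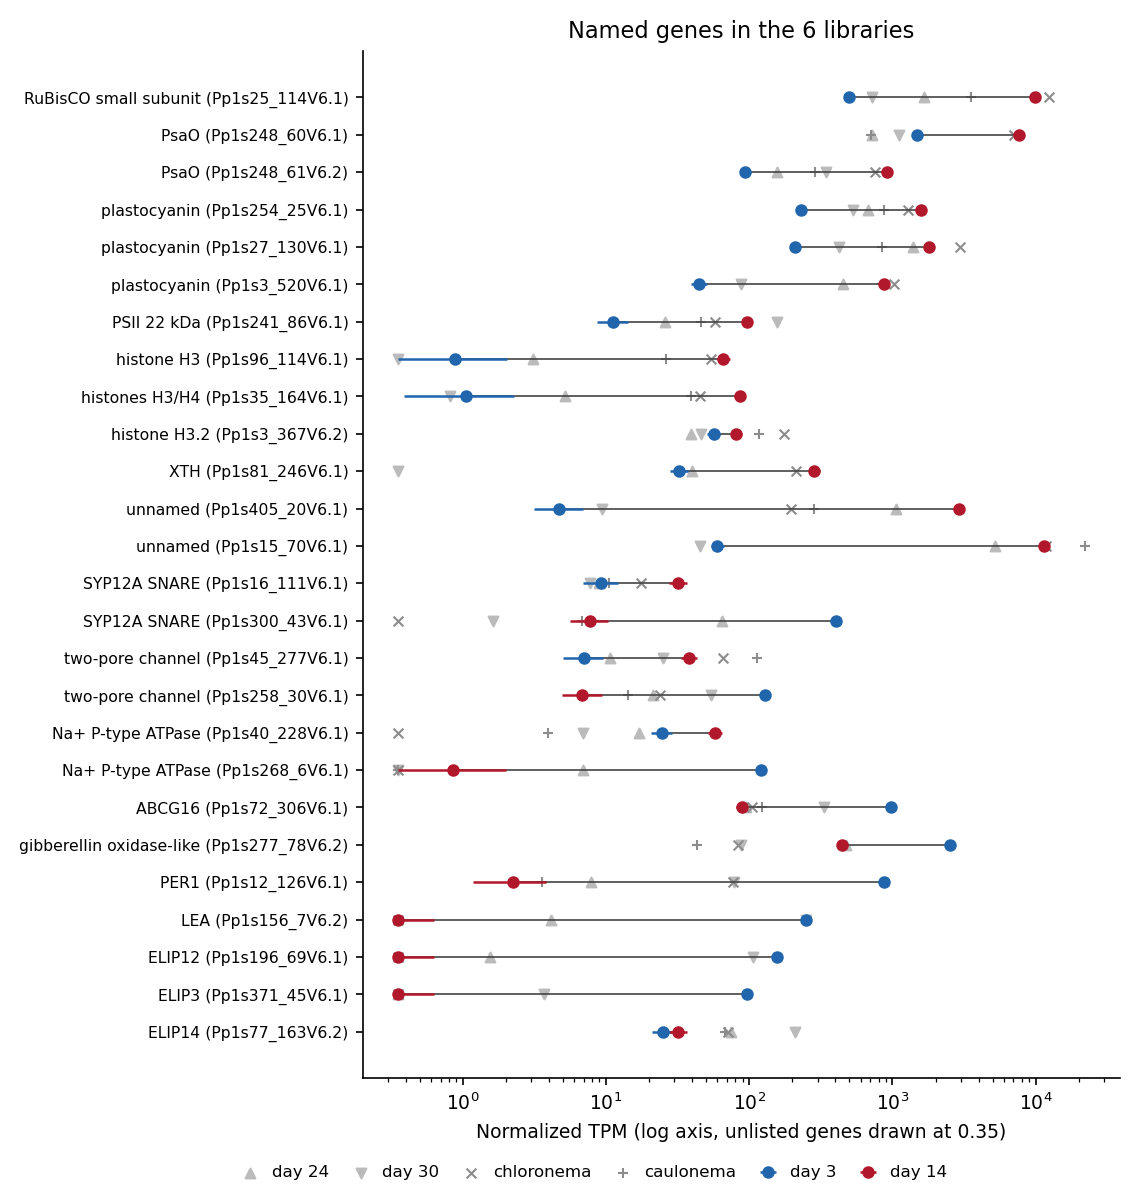
Normalized TPM (log axis) of named genes in the 6 libraries, with day 3 in blue and day 14 in red joined by a line, horizontal bars for 95% counting intervals on those 2, and the other 4 libraries in grey; genes unlisted in a library are drawn at 0.35. The upper genes lie further right at day 14, the lower ones at day 3, and the pairs of SYP12A SNAREs, two-pore channels and sodium pumps have the 2 days in opposite order.

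Each library listed 1 tag per gene model, which lets a change of tag site stand beside a change of level. Of the tested genes 7068 were counted at the same CATG site on both days, and of these 1399 were higher and 1392 lower. Another 590 were counted at different sites, of which 129 were higher and 140 lower, or 21.9% and 23.7%. Over all tested genes 20.1% were higher and 20.3% lower. The steep rise of Pp1s433_15V6.2, annotated to defense response, from 5 to 2308 tags, and that of Pp1s240_2V6.1 from 2 to 1399 tags were between different sites, and their size therefore rests on unlike tags. Tags 1 base away from that of another gene were found for 205 tested genes. Of these 45 were higher and 37 lower, near the shares of all tested genes.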

How the data were processed

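Tag libraries of gametophytes at days 3 and 14 were compared, each made by the authors from 6 µg of total RNA of 3 pooled biological replicates. The deposited counts are the authors' numbers of 21-nt tags per gene model, after adaptor-only, ambiguous, wrongly sized and single-copy tags had been removed, with up to 1 mismatch to the gene models allowed and tags of several genes discarded. The deposited TPM values are those counts scaled by the authors to 1000000 clean tags of the library. Annotation and best database matches came with the deposited tables, and other names are those of Arabidopsis homologues in the part of the study's supplementary table at hand. No identifier could be placed on a genome here, so that no coordinates are given.

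Libraries were scaled by TMM (edgeR 4.0.16, R 4.3.3) and each gene's tags entered an exact binomial test, two-sided (scipy 1.17.1, Python 3.11.15) with Benjamini-Hochberg adjustment. A gene was called over 2-fold with p under 0.01 and adjusted p under 0.001. Exact 95% intervals cover counting error only, because PCR copies of a molecule are counted as if independent. Ratios against an unlisted gene were taken against 3 tags and are lower bounds, which hold only where an unlisted value means few tags. With 1 library a side the quasi-likelihood test of edgeR could not be fitted and DESeq2 1.42.0 gave size factors only.

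Named were the 25 genes that rose most and the 25 that fell most, ranked by the interval bound nearest to 1, the 10 largest genes of each library, the 3 most tagged members of each list in each direction with 1 uncalled, the genes that the study names and members of families put together by best match, of which a part is printed. The comparison, lists and rule were chosen with earlier results of these data known, and the search words of the actin list were corrected after the data had been seen, because they also matched "acting". Lists share members. Alternatives were total gene tags, DESeq2 size factors or the deposited TPM as scaling, other filters, a 4-fold limit, edgeR exact tests at an assumed variation of 0.2 or 0.4, the same tag site, 1 gene model per locus and unlisted genes at 3 tags. Other software was numpy 2.4.6, pandas 2.3.3 and matplotlib 3.10.9. The authors' own comparison columns in the supplementary table were not used.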

Additional observations from a re-analysis of the deposited data

How the results depend on the processing

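The calls rest on 1 pooled library a day, and the test knows counting error only. No paired analysis was possible because each day has 1 library and no replicate number is shared. With edgeR exact tests at an assumed coefficient of variation of 0.2 between plants, 762 genes were higher and 745 lower, and at 0.4 the numbers were 101 and 173. A 4-fold limit left 570 and 572. Over 100 tags in each library left 869 and 671 of 5370 genes, of which the filter removes those near 0 on 1 day, and no filter gave 2250 and 2473 of 17925. The tested genes had a median log2 ratio of -0.083 with total gene tags, -0.035 with the deposited TPM and -0.034 without a filter, in place of 0.07, and TMM scaling raised all log2 ratios by 0.15 against total gene tags. With the latter 1327 genes were higher and 1799 lower, with DESeq2 size factors 1456 and 1654. Over 100 tags in both libraries together, the same tag site and 1 gene model per locus gave 1694 and 1770, 1399 and 1392, and 1525 and 1548. Lists with more higher than lower members numbered 19 of 45 and between 13 and 20 under the alternatives, and the median of 4 lists (translation factors, cell wall, proteasome and proteases) changed its sign with the scaling. Levels near the floor of 3 tags set the size of the ratios against unlisted genes. Of the 143 gene models named here, 122 had the same call at an assumed variation of 0.2, 54 at 0.4 and 139 with total gene tags. With total gene tags, which moves every log2 ratio by the same 0.15, 0 changed direction. The assumed variations leave the ratios as they are, so no direction could change under them.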

Other observations

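Gene models with consecutive numbers on a scaffold, which may lie side by side, were compared without reference to function. Of 1248 pairs of tested loci with consecutive numbers, 73 were both higher, 39 both lower and 79 called in opposite directions. Among the neighbours of loci that were higher, 27.3% of 535 were higher too, and among the neighbours of loci that were lower 18.9% of 412 were lower. The shares of all tested loci, 20.1% and 20.3%, are no like background for these values. Within the pairs 535 places were held by higher loci and 412 by lower loci, so calls there were less even than over all loci. The PsaO gene models Pp1s248_60V6.1 and Pp1s248_61V6.2 are such a pair with both higher, and Pp1s34_348V6.2 (1407 to 5 tags) and Pp1s34_349V6.1 (981 to 4 tags), neither with annotation, are a pair with both lower. Neither the physical distance nor shared ancestry of such pairs could be read from the files.

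Of 86 loci with more than 1 tested gene model, 16 had all models higher, 8 all lower, 39 none called and 23 called and uncalled models. Models called in opposite directions were found at 0 loci.

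Several of the deepest falls were followed by larger counts at day 30, in a library of 2281272 gene tags. Pp1s109_92V6.1, without annotation, had 2422 tags at day 3, 7 at day 14, 137 at day 24 and 943 at day 30. The LEA gene model Pp1s156_7V6.2 had 1419 tags at day 3, was not listed at day 14 and had 611 tags at day 30, and ELIP12 (Pp1s196_69V6.1) had 891, none listed and 260. Pp1s51_28V6.1, annotated to primary metabolism, did not share this, with 14527 tags at day 3 and 65 at day 14, 473 at day 24 and 10 at day 30. These genes were picked after their values had been seen.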
